A study of Mus musculus with 20 samples.

Results

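Among single subiculum pyramidal cells, 115 wells were described that held a high level of Nts, the precursor of the peptide neurotensin, and no count of Sv2c, a gene of the synaptic vesicle glycoprotein 2 family. A well entered when at least 1000 genes were detected in it and it held at least 1 count of Slc17a7, the vesicular glutamate transporter of cortical and hippocampal excitatory neurons. Values are counts per 10000 counts of the well, and a member needed an Nts value of at least 3 and an Sv2c count of 0. Of 384 wells on 4 plates (Q5 to Q8, 96 wells each), 11 were empty, 348 had at least 1000 genes and 326 of these held Slc17a7. The 115 members are 35.3% of the 326 (95% exact binomial interval 30.1 to 40.7%), and the 211 other wells are the comparison. Of these 211 wells, 22 were also high in Nts but held Sv2c, and 189 had an Nts value under 3.

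The subiculum receives input from hippocampal area CA1, and its excitatory pyramidal neurons carry hippocampal output to cortical and subcortical targets. Neurotensin is a neuropeptide that is cut from its precursor, stored in dense-core vesicles and released to act on G-protein-coupled receptors. The SV2 proteins sit in the membrane of synaptic vesicles, where Sv2a and Sv2b are widespread in forebrain neurons and Sv2c is restricted to fewer cell types.

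Fluorescent mouse subiculum neurons were picked by hand from microdissected slices, per the labels' protocols. The labels do not give strain, age or sex, nor how the fluorescence was introduced, and all groups share this preparation. A count of a Y-linked gene was found in 97 of 115 members and 168 of 211 other wells, and a count of Xist in 0 of either. Beside the wells there were 12 bulk libraries, 3 biological replicates for each of 4 targets to which the sorted pyramidal cells project. The labels call these NA, PFC, RSC and VHN without spelling them out. The first is commonly read as nucleus accumbens, the second as prefrontal and the third as retrosplenial cortex, while VHN stays as labelled. The labels tie no well to an animal or a projection target, so the wells are 1 pooled sample: they carry values and plates but no test, and their intervals cover counting error only. The rule for the wells uses no bulk value, although rule and comparisons were chosen with earlier results of these data known, the bulk ones included. The tests here are on the bulk libraries, and their p-values measure the spread between these 12 libraries.

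The members came from every plate, with 27, 26, 36 and 26 wells on plates Q5, Q6, Q7 and Q8. Their share of the gated wells was 32.5% on Q5, 32.1% on Q6, 46.2% on Q7 (34.8 to 57.8%) and 30.95% on Q8 (21.3 to 42.0%), so the intervals of the highest and the lowest plate overlap. Well totals ran from 30915 to 259690 counts in members (median 115847) and from 16408 to 322542 in other wells (median 113658). The median number of detected genes was 5278 in members and 5240 in other wells, and the median mitochondrial share of counts was 3.08% and 2.98%. No 2 wells held identical counts. Bulk libraries held 10777271 to 20904122 gene fragments.

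The Nts value of members ran from 3.05 to 23.0 with a median of 8.64. The 3 members nearest the gate had 3.05, 3.16 and 3.22, and the 3 Sv2c-free wells just under it had 2.93, 2.97 and 2.98. No gap separated the 2 sides. In the 189 wells under the gate the median was 0.374, and 82 held no Nts count. Of the members, 93 had an Nts value of 5 or more and 48 of 10 or more. These values chose the wells and are no finding.

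**Figure D1:**
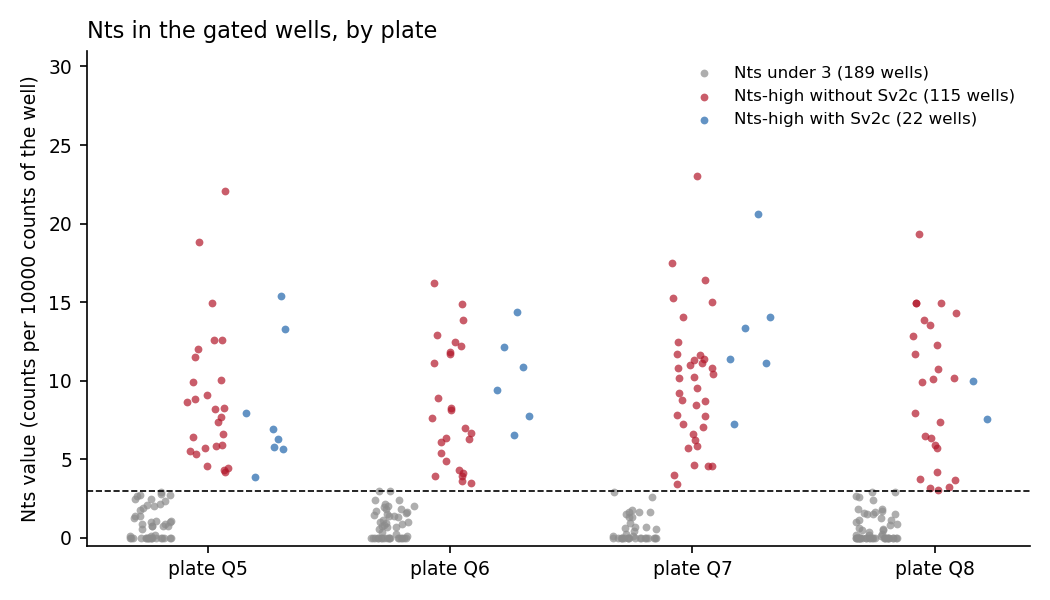
Nts value (counts per 10000 counts of the well) of each of the 326 gated wells, by plate; each point is 1 well, coloured by group, and the dashed line is the gate of 3. Wells fill the range on either side of the line on every plate, and members reach 23.0.

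An Sv2c count of 0 depends on depth. The 22 Nts-high wells with Sv2c held 1 to 30 Sv2c counts (median 7), which is a value of 0.0670 to 2.46 (median 0.655), and 4 of them had 3 or fewer counts. A count of 0 allows up to 3 counts, a value of 0.259 at the median total of the members, 0.116 at the highest and 0.970 at the lowest. The last is over the median of the wells with Sv2c, so in the shallowest members an Sv2c level of that size could be missed. After each well was thinned to 20000 counts, 3 of the 22 lost their Sv2c count. Of all 137 Nts-high wells, 16.1% held Sv2c (10.4 to 23.3%), and 1 well under the Nts gate held 13 Sv2c counts.

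The label of these wells as pyramidal cells held on markers the rule had not used. All 8 measured pyramidal markers had counts in members, with a summed value of 9.60 to 36.0 per well (median 17.4) against 3.79 to 36.1 (median 16.1) in other wells. Single markers did not all follow the sum. Over the 7 with a mean of at least 0.1, the median log2 ratio of members to other wells was −0.21. At that level Nrn1 was lower in members by the rule of size given below. Of 12 interneuron markers (Cck, which pyramidal cells also express, left out), 2 had a count in members (summed value at most 1.19), and the GABA synthesis and transport genes Gad1, Gad2 and Slc32a1 were at 0 in all 115. In other wells the same sum reached 21.6. Of 8 astrocyte markers, 3 had a count in members and the others, Aqp4 and Gfap among them, were at 0. Their sum reached 9.94 in members (median 0) and 18.1 in other wells (median 0.265). Of 7 oligodendrocyte markers, 3 had a count and the myelin genes Mog, Mag, Mobp and Cldn11 were at 0. That sum had a median of 0.604 in members and 0.359 in other wells, and reached 5.003 and 5.18. Of 7 microglial markers, 1 had a count in members, with a sum of at most 0.526 against 3.11 in other wells. The part of these transcripts in the differences below was not tested. The vesicular glutamate transporter Slc17a6 was present in 96 of 115 members (83.5%). That the cells are from subiculum rests on the labels. Of 14 presubiculum, entorhinal and deep neocortex markers, 7 had a count in members, with a median sum of 13.8 against 8.68 in other wells. All 9 CA1 markers (Meg3 left out) had counts in members, with median sums of 14.9 and 14.1. At the level of 0.1 the CA1 markers Wfs1 and Fibcd1 were lower in members.

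Kremen2, Bcan, Vat1l and Htr1f were listed with the rule for these wells as proposed companions of Nts, and all were sparse. Like the rule, this list was chosen with earlier results of these data known, so it is no independent check. Kremen2, a receptor gene of the Wnt pathway, was detected in 12.2% of members (6.82 to 19.6%) and 2.84% of other wells. No member on plate Q6 held a count of it. Bcan, which encodes the perineuronal proteoglycan brevican, was detected in 36.5% against 15.2%, Htr1f, a serotonin receptor gene, in 36.5% against 11.8%, and Vat1l in 30.4% against 11.8%. At least 1 of the 4 genes was found in 77 members, and 38 members held none. Among other wells, 64 of 211 held at least 1. Plate means of Kremen2 and Bcan were not higher in members on every plate. In the Nts-high wells with Sv2c the 4 means were 0.263 for Bcan, 0.117 for Vat1l, 0.184 for Htr1f and 0.0976 for Kremen2, beside 0.289, 0.125, 0.155 and 0.0839 in members. The Kremen2 mean of wells with Sv2c leaned on plate Q8, at 0.347 with 2 such wells. With counts pooled over wells, Kremen2 had a value of 0.0625 there and 0.0824 in members.

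Few genes differed in mean level between members and other wells by a fixed rule of size. A gene was counted when its mean value was at least 1 on the higher side with a count in at least 30% of those wells, the means (each plus 0.05) differed at least 2-fold, and the sign was the same on every plate. Of 2080 genes that reached the level, 14 were higher in members (0.673% of those compared) and 25 were lower (1.2%). With the level lowered to 0.1, a setting added later, 45 of 6727 genes were higher (0.669%) and 98 were lower (1.46%).

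Among genes for receptors, channels and transporters, Rxfp1, which encodes a relaxin receptor, had a value of 0 to 9.20 in members (median 2.59) and 0 to 7.38 in other wells (median 0). Its mean was 2.92, 2.83, 2.97 and 2.41 in members on plates Q5 to Q8 and 0.947, 0.943, 0.657 and 0.465 in other wells, so the plate means of the 2 sides did not overlap. It was detected in 84.3% of members (76.4 to 90.5%) and 31.8% of other wells (25.5 to 38.5%). After thinning to equal depth the shares were 80.0% and 23.8%. Slc5a5, the sodium and iodide symporter, averaged 2.25 in members and 1.05 in other wells. Kcnab3, an auxiliary subunit of voltage-gated potassium channels, averaged 1.003 and 0.303, and Thrb, a nuclear thyroid hormone receptor, 1.002 and 0.450. At the lower level the orphan receptor gene Gpr101 was detected in 63.5% of members and 16.6% of other wells, the netrin receptor gene Unc5c in 67.8% and 29.4%, and Gfra1, a receptor subunit for glial-derived neurotrophic factors, in 73.9% and 29.4%.

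Among synaptic and vesicle genes, Syt2, a fast calcium sensor of transmitter release, averaged 1.40 in members and 0.423 in other wells and was detected in 68.7% and 19.9%, reaching 12.6 and 6.73 in single wells. Its plate means in members were 1.83, 0.940, 2.08 and 0.755, against 0.647, 0.468, 0.352 and 0.225 in other wells. The other SV2 genes differed little, since Sv2a averaged 3.60 and 3.47 and Sv2b 2.52 and 2.63. Cplx2, a complexin that binds the release machinery, was lower, at 2.10 against 5.10, as was Erc2, a scaffold of the presynaptic active zone, at 0.589 against 2.35. Olfm1, a secreted protein of synapses, averaged 3.16 and 7.93, and the pentraxin receptor gene Nptxr 0.701 and 1.85.

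Genes for secreted, surface and other proteins completed the higher group. No named gene of this group was also higher in members than in Nts-high wells with Sv2c by the same rule. Igfbp4, which binds insulin-like growth factors, averaged 1.92 in members and 0.496 in other wells, and Lamp5, of the lysosome-associated membrane protein family, 1.22 and 0.315. Lxn, a carboxypeptidase inhibitor, was detected in all 115 members and in 96.2% of other wells, with means of 18.03 and 8.26. B2m, the light chain of class I histocompatibility molecules, averaged 1.71 and 0.785, Lgi3 1.19 and 0.505, Amn 1.10 and 0.447 and Tekt5, a tektin, 1.25 and 0.549. Mirt1, a long noncoding RNA, averaged 1.11 and 0.252.

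On the lower side the farthest apart was Dcn, which encodes the matrix proteoglycan decorin, at 0.179 in members and 2.94 in other wells, a 13.0-fold difference. Single wells reached 7.94 and 45.8. It was detected in 10.4% of members and 35.1% of other wells, and its plate means in members were 0.452, 0.00776, 0.00582 and 0.252. Calb1, the calcium buffer calbindin, averaged 0.409 and 2.33 and was detected in 11.3% (6.16 to 18.5%) and 44.5% (37.7 to 51.5%). Zeb2, a zinc finger transcription factor, averaged 0.409 and 1.75, and Mef2c, an activity-regulated transcription factor, 0.394 and 1.32. Nnat, a small membrane protein of the endoplasmic reticulum, averaged 2.01 and 7.91, but its plate means in members ranged from 0.206 on Q7 to 5.30 on Q8. The neurotrophin Bdnf averaged 1.23 and 3.27, pleiotrophin (Ptn) 1.41 and 3.79, the protease inhibitor gene Spink8 1.42 and 3.86, Cpne7 0.438 and 1.58, the calcium channel subunit Cacna2d1 0.542 and 1.53, and protein kinase C alpha (Prkca) 0.393 and 1.06. The plot of plate ratios shows that Nnat, Dcn and Calb1 spread most between plates.

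**Figure D2:**
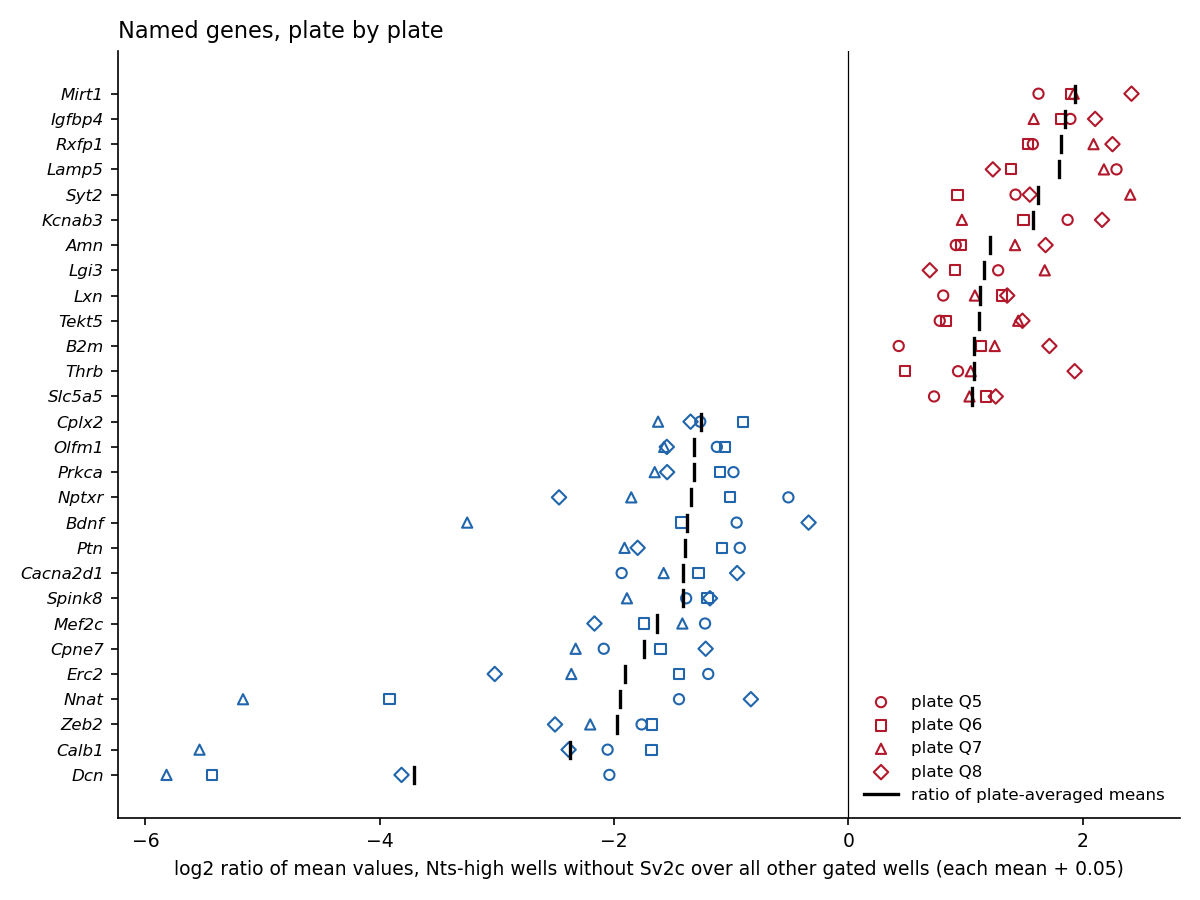
Log2 ratio of mean values, members over all other gated wells, for the 13 higher and 15 lower named genes; open symbols are the 4 plates and black bars the ratio of plate-averaged means, each mean with 0.05 added. All plates lie on the same side of 0 for every gene, as the rule required, and Dcn has the lowest ratio.

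Some genes of the listed families met the rule. Over all genes that reached the level of 0.1, 0.669% were higher in members and 1.46% lower. Their median log2 ratio of members to other wells was −0.01. Families were not tested against these shares. Of 26 potassium channel genes at that level, Kcnab3 and Kcnn1 were higher and Kcnd3 and Kcnmb4 lower (median 0.12). Of 14 calcium channel genes, 2 were lower (Cacna2d1 and Cacnb2, median −0.42), and of 22 calcium-binding genes 4 were lower (Calb1, S100a10, Hpcal4 and Necab3, median −0.13). Of 15 GABA and glycine receptor genes only Glra3 counted, as higher. Of 22 axon guidance genes Unc5c was higher and Slit1 and Robo2 lower. Of 14 deep-layer projection neuron genes Rxfp1, Htr1f and Bcl6 were higher and Rprm and Hs3st4 lower. None of 10 extracellular matrix genes in the list, none of 10 cholesterol synthesis genes and none of 38 ribosomal protein genes counted. In the neurotensin system, Ntsr1 had no count in the 115 members, which at this depth allows a count in up to 2.61% of such wells (3.16% by the exact interval). It had a count in 0.948% of other wells (0.115 to 3.38%), so a difference was not detectable. Ntsr2 averaged 0.121 and 0.163, and Sort1, a sorting receptor that binds neurotensin, averaged 3.36 and 2.30.

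**Figure D3:**
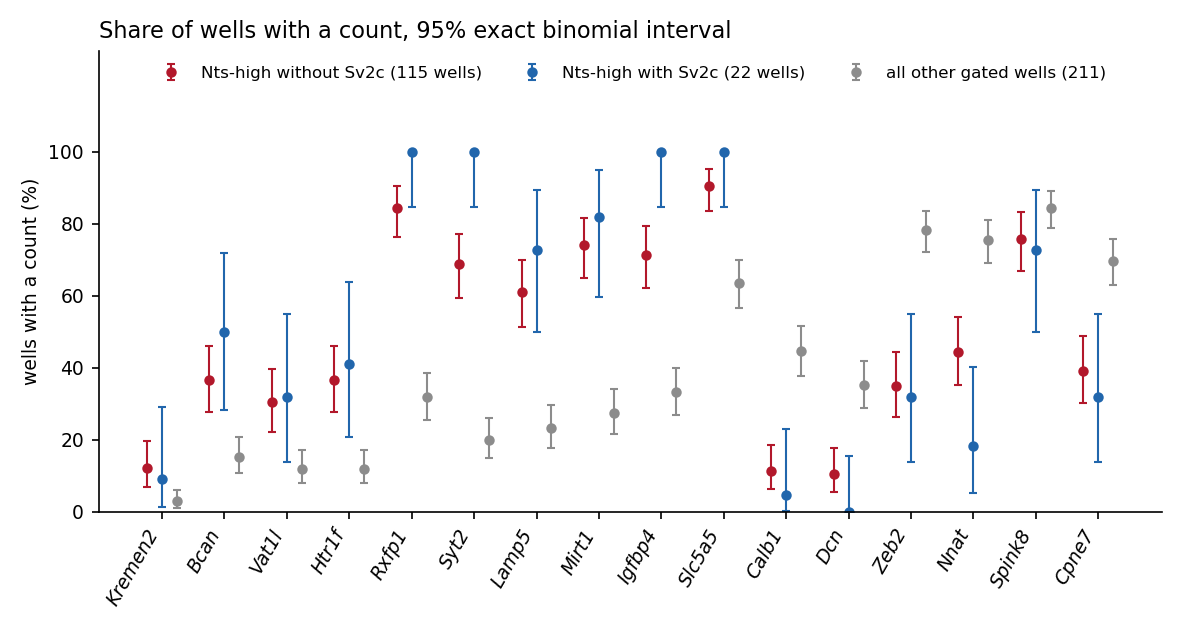
Share of wells with a count (%) for the 4 proposed companion genes, 6 higher and 6 lower named genes, in members, in Nts-high wells with Sv2c and in all other gated wells (which include those 22); bars are 95% exact binomial intervals for counting error only. Rxfp1 was found in 84.3% of members and 31.8% of other wells, and Dcn in no well with Sv2c.

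The members were not uniform. Of the 13 higher named genes, members held a count for 1 to 13 (median 11) and other wells also for 1 to 13 (median 5). Calb1 was present in 13 members, whose median Nts value was 4.44 against 8.998 in the 102 without it. Rxfp1 was found in 53.8% of these 13 and in 88.2% of the 102. Rprm was present in 22 members, of which 50% held Rxfp1 and 27.3% Syt2, against 92.5% and 78.5% of the 93 without Rprm. Nnat was present in 51 members, of which 72.5% held Rxfp1, against 93.8% of the 64 without it.

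Detection of these genes also differed by Nts level within and outside the gate. Among wells without Sv2c, Rxfp1 was detected in 24.6% of 122 wells with Nts under 1, 41.7% of 24 wells from 2 to 3, 59.1% of 22 wells from 3 to 5, 88.9% of 45 wells from 5 to 10 and 91.7% of 48 wells at 10 or more. Wells from 1 to 2 stood outside that order with 9.52% of 42. Calb1 was detected in 55.7%, 45.2%, 25%, 31.8%, 11.1% and 2.08% of wells over the 6 ranges from low to high Nts, and Zeb2 in 82.0%, 90.5%, 83.3%, 63.6%, 35.6% and 20.8%. Members from 3 to 5 lay between the wells under 1 and the members at 10 or more on all 3 genes.

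The 22 Nts-high wells with Sv2c were the closest comparison. Of 2137 genes that reached the level of 1, 9 were higher in members (0.421%) and 5 were lower (0.234%), with plate Q8 left out of the sign rule because it held 2 such wells. Those 2 wells still entered the means of wells with Sv2c, at the same weight as each other plate. Without 1 plate the total ran from 9 to 39, without Q5, Q6 or Q7 being 35, 39 and 37, so a count on 22 wells was not stable. At the added level of 0.1 it was 159 of 6924 genes higher (2.3%) and 71 lower (1.03%). Nnat averaged 2.01 in members and 0.0494 in wells with Sv2c, Cplx2 2.10 and 0.632, Bdnf 1.23 and 0.471, and Spink8 1.42 and 0.550. These 4 genes were lower in members than in other wells and lower again in wells with Sv2c. Dcn and S100a10, a calcium-binding protein gene, had no count in the 22 wells, which at this depth allows a count in up to 13.6% of such wells (15.4% by the exact interval). In members the shares were 10.4% and 38.3%, so for Dcn a difference was not detectable. Ncald, a neuronal calcium sensor, averaged 1.43 in members and 3.13 in wells with Sv2c, and Chkb, a choline kinase gene, 0.449 and 1.23. Rxfp1, Syt2, Igfbp4 and Slc5a5 were each detected in all 22 wells with Sv2c, against 84.3%, 68.7%, 71.3% and 90.4% of members. None of the 13 higher named genes met the rule between members and wells with Sv2c. Means of Mirt1, Lamp5, Lgi3, Tekt5 and Thrb were higher in members, and those of the others lower. Rxfp1 averaged 2.78 in members and 4.24 in wells with Sv2c, and Lamp5 1.22 and 0.836.

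The question for the bulk libraries was whether populations defined by projection target differ in the same genes. RSC and VHN libraries averaged 313 CPM of Nts and 24.6 CPM of Sv2c, against 20.1 and 0.674 CPM in NA and PFC. They were compared with the NA and PFC libraries by edgeR's quasi-likelihood test. The sides are thus the populations with the higher and with the lower Nts, a gate gene. Agreement between wells and bulk below is therefore no independent check, and it cannot be told apart from a shared relation to Nts. Of 13916 genes tested, 927 were higher in RSC and VHN (6.66%) and 1055 lower (7.58%) at an adjusted p under 0.05. Bulk RNA cannot tell fewer cells of a type from less RNA per cell.

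All 13 tested genes of the 14 higher in members were also higher in RSC and VHN, and 20 of the 25 lower in members were lower there. None was called in the opposite direction. The median log2 fold change was 2.46 for the higher genes (0.77 to 7.13) and −1.90 for the lower ones, against −0.01 over all genes tested. For 12 of the 13 genes the 6 RSC and VHN libraries did not overlap the 6 others (3.94% of all genes, on the higher side), and for 16 of the 25 (3.57% on the lower side). Mirt1 was not among the genes tested in bulk, and Chgb, Tesc, Gsta4, 1700086L19Rik and Ppp1r1a missed the threshold. At the added level of 0.1, 36 of 42 tested higher genes and 64 of 96 tested lower genes were called the same way.

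RSC replicates 2 and 3 and VHN replicate 3 held interneuron transcripts, with Gad2 at 43.3 to 177 CPM against at most 7.40 CPM in the other 9 libraries. Without these 3 libraries 746 genes were called in all, and 11 of the 13 and 19 of the 25 genes were called. Amn and Tekt5 lost their call, and so did Limd2 and Tagln3 on the lower side, while 1700086L19Rik gained one. At the added level the counts were 22 of 42 and 56 of 96.

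Syt2 had 2.80, 3.97 and 6.31 CPM in the NA libraries and 3.64, 0.347 and 0.0938 in PFC. It had 691, 496 and 318 CPM in RSC and 356, 222 and 120 in VHN. The log2 fold change was 7.13 (SE 0.55, edgeR adjusted p = 1.39e-06), and every RSC and VHN library lay above every other.

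Rxfp1 had 1.55, 0.321 and 6.36 CPM in NA, 1.13, 0.554 and 0 in PFC, 187, 138 and 182 in RSC and 177, 141 and 115 in VHN. Its log2 fold change was 6.93 (SE 0.60, edgeR adjusted p = 2.63e-06), with no overlap between the sides. Igfbp4 averaged 129 ± 57.0 CPM (SD, n = 6) in RSC and VHN and 6.67 ± 4.27 in NA and PFC, Lamp5 152 ± 54.2 and 8.95 ± 11.5, and Kcnab3 204 ± 32.5 and 15.9 ± 11.6. The smallest edgeR adjusted p of these 3 was 1.15e-05 for Igfbp4 and the largest 5.40e-05 for Lamp5. B2m averaged 165 ± 58.7 and 74.8 ± 25.9 CPM and its libraries overlapped, although it passed (edgeR adjusted p = 0.00732).

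Dcn had 59.6, 93.8 and 37.6 CPM in NA and 346, 322 and 92.6 in PFC, but 0, 0 and 9.62 in RSC and 1.84, 7.74 and 3.09 in VHN. Its log2 fold change was −5.10 (SE 0.88, edgeR adjusted p = 8.62e-04), with no overlap. Nnat was low in all RSC libraries (4.44, 0.496 and 3.19 CPM), while VHN had 3.52, 333 and 71.1 CPM, so VHN replicate 2 overlapped the NA and PFC range of 98.8 to 1178. Calb1 fell in the same comparison by 4.88 on the log2 scale (SE 0.89, edgeR adjusted p = 0.00134) and Zeb2 by 3.50 (SE 0.58, edgeR adjusted p = 5.95e-04). Cacna2d1 averaged 107 ± 30.4 CPM (SD, n = 6) in RSC and VHN and 558 ± 136 in NA and PFC, with the lowest adjusted p among the named lower genes (edgeR, 8.32e-07).

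**Figure D4:**
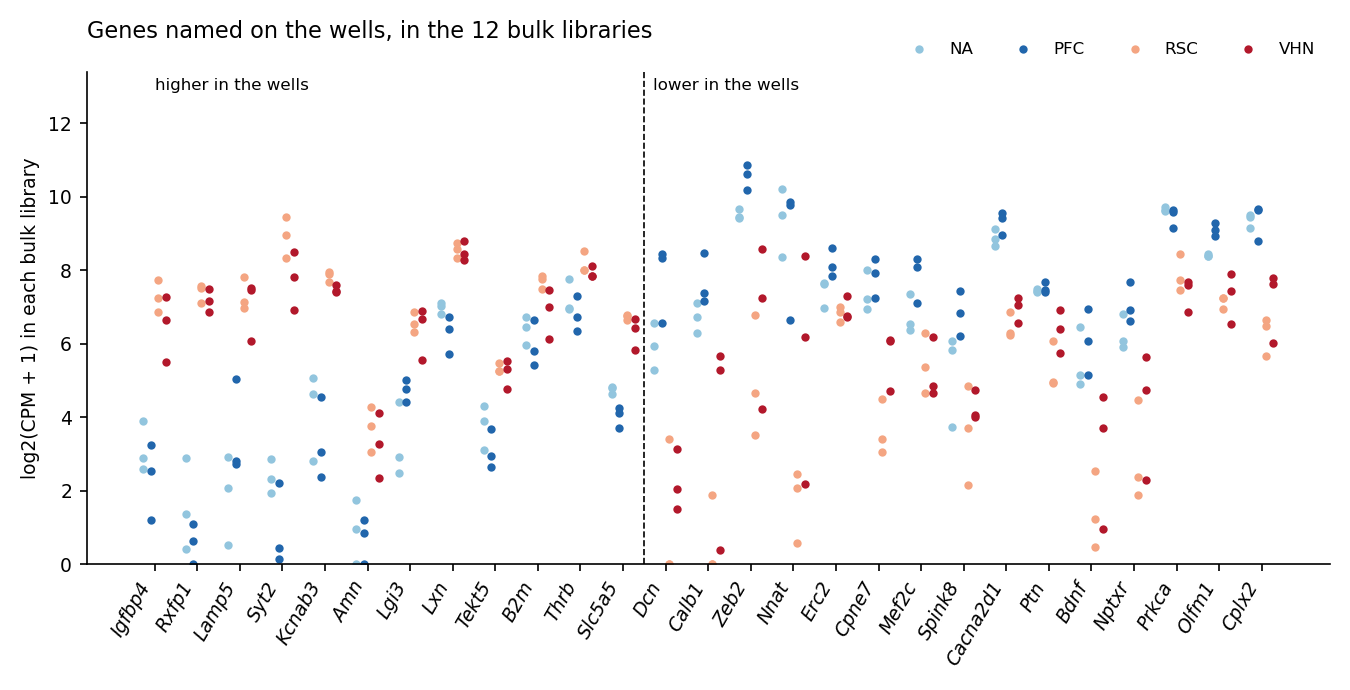
Log2(CPM + 1) in each of the 12 bulk libraries for the genes named on the wells, coloured by population, with genes higher in members left of the dashed line and lower ones right; Mirt1 is absent because it was not tested. RSC and VHN points sit above NA and PFC on the left, with overlap for B2m, and below them on the right, where Nnat, Erc2 and Spink8 overlap.

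Of the 4 proposed companions, Bcan (log2 fold change 2.93, edgeR adjusted p = 0.00662), Vat1l (2.66, adjusted p = 4.56e-04) and Htr1f (2.84, adjusted p = 0.0239) were higher in RSC and VHN by the edgeR test. Htr1f missed the threshold without PFC replicate 1 or 2, RSC replicate 1 or VHN replicate 1, and without the 3 libraries with interneuron transcripts (edgeR adjusted p 0.05597 to 0.06164). Kremen2 was not called (edgeR adjusted p = 0.476), with 0.519, 4.47 and 3.24 CPM in RSC and at most 0.158 in VHN. Cytosolic ribosomal protein genes differed between the sources in their median, a log2 fold change of 0.87 in bulk RSC and VHN and a log2 ratio of −0.06 in members. By edgeR adjusted p under 0.05, 21 of 38 were higher in bulk (6.66% of all genes). By the 2-fold rule none of 38 was higher in members (0.669% of all genes at the level of 0.1). These counts rest on unlike rules.

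The edgeR test called 0 genes between RSC and VHN, with 720 at an unadjusted p under 0.05 (5.17%) and 59 called by DESeq2. NA against PFC gave 56 higher (0.402%) and 5 lower (0.0359%), none of them among the 14 and 25 genes.

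Read in the other direction, genes chosen on bulk alone ordered the wells. The 50 genes with the largest called log2 fold change on each side (at least 50 CPM there, gate genes left out) were summed in each well. Both sets hold genes already named on the wells, such as Syt2, Rxfp1, Lamp5 and Igfbp4, and Dcn, Calb1, Zeb2 and Nnat. The sums therefore repeat part of the comparison above and are no separate check. The set high in RSC and VHN also holds the interneuron transcript Gad2. The 50 genes high in RSC and VHN summed to 6.39 to 78.1 in members (median 51.2), to a median of 20.9 in other wells and to a median of 59.95 in wells with Sv2c. The 50 genes high in NA and PFC summed to 0.435 to 71.1 in members (median 6.11), with medians of 31.5 in other wells and 3.37 in wells with Sv2c. A member had the higher first sum in 81.3% of pairs of a member and another well (77.5 to 85.8% on single plates) and the lower second sum in 82.3% (77.8 to 86.6%). Of the first 50 genes, 45 had a mean of at least 0.1 and 34 of these were higher in members on all 4 plates (10.6% of all genes). Of the second, 39 reached that level and 35 were lower on all 4 (13.8%).

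The 2 sets of wells overlapped on these sums. Of the members, 5 lay beyond the medians of the 189 wells under the gate on both sums, and their Nts values were 3.22 to 6.26. Conversely, 7 of the 189 wells lay beyond the members' medians on both. Against the 22 wells with Sv2c a member had the higher first sum in 31.6% of pairs, so those wells lay farther to that side than the members.

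**Figure D5:**
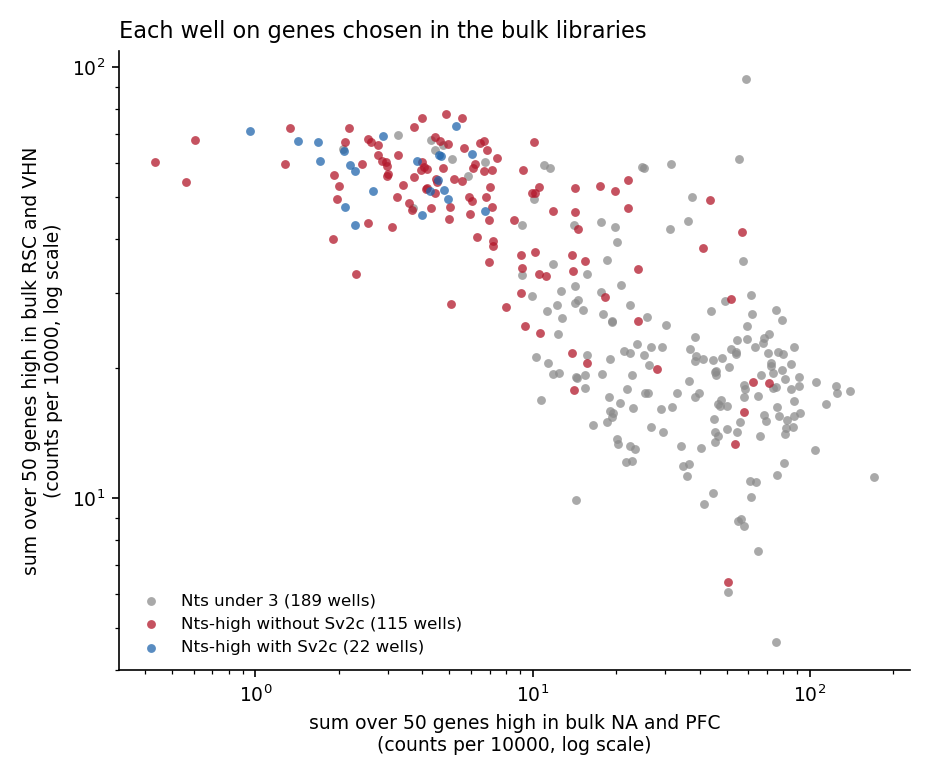
Sum over 50 genes high in bulk RSC and VHN (vertical) against the sum over 50 genes high in bulk NA and PFC (horizontal) in each of the 326 gated wells, in counts per 10000 on log axes; points are wells coloured by group. Members have medians of 51.2 and 6.11 and lie mostly at the upper left, beside the wells with Sv2c, with a few among the wells under the gate at the lower right.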

How the data were processed

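The deposited values of the wells are raw counts, all whole numbers, for 47295 gene rows, of which 45288 matched a symbol; whether molecular identifiers were used is not given in the sources used here. For the bulk libraries the authors deposited raw fragments, which are expected counts per the file headers: 8.51% of those above 0 were not whole, so they were rounded. The genome build is mm9 per the submitters' processing notes, and aligner and counter are not given in the sources used here. The labels list 8 single-cell samples that the well names do not tell apart.

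Well means were averaged over plates with equal weight. Named genes were the 15 with the largest ratio per direction (10 against wells with Sv2c), up to 4 per list and the proposed companions; predicted genes were counted but not described. Bulk genes passed filterByExpr (smallest count 10) of edgeR 4.0.16 with TMM factors, and 12 libraries in 4 groups entered 1 quasi-likelihood fit with Benjamini-Hochberg adjustment over 13916 genes. CPM were computed here from the deposited counts. DESeq2 1.42.0, other scalings, filters, gates, thinning and left-out libraries or plates were alternatives. The scripts were tested on simulated data. Members, lists and comparisons were chosen with earlier results of these data known. No coordinates or sequences are given. Reads from overlapping, antisense or multicopy genes cannot be told apart here.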

Additional observations from a re-analysis of the deposited data

How the results depend on the processing

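Against all other wells, the 39 genes counted became 33 to 43 with Nts gates of 2, 5 and 10, higher gene minimums, thinning to 20000 counts, equal weight of wells or without wells with interneuron transcripts, and 35 to 49 without 1 plate. They became 5 on the difference of mean log2(value + 1), 19 with a pseudocount of 0.5, and 143 with no minimum level or with 0.1. None of 31 named genes turned sign. Against the 22 wells with Sv2c, 14 genes became 85 at a gate of 10, 34 after thinning, 0 on the log2 difference, 2 with a pseudocount of 0.5, 230 with no minimum level or with 0.1, and 9 to 39 without 1 plate. The percentages of pairs stayed within 80.2 to 82.6 and 80.2 to 84.0 without 1 plate, were 78.8 to 83.2 with 25 or 100 genes per side, and were 81.5 and 81.7 with genes chosen without the 3 libraries with interneuron transcripts.

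In bulk, 1982 genes for RSC and VHN against NA and PFC became 1488 to 2176 without 1 library, 1959 (1046 higher and 913 lower) without normalization, and 746 without the 3 libraries. RSC against VHN gave 0 to 19 without 1 library (19 without VHN replicate 1), 59 by DESeq2 and 93 without the filter. NA against PFC, 61 genes, gave 22 to 152 without 1 library (152 without NA replicate 3, 22 without PFC replicate 2), 464 by DESeq2, 514 without the filter, 23 without normalization and 16 without the 3 libraries. Of 41 named genes, those that changed sign had no call: Plekha5 (log2 fold change −0.26 to 0.018 without 1 library, positive without NA replicate 2), Prps1 (−0.22 to 0.056, positive without NA or PFC replicate 1, and 0.0046 without the 3 libraries) and Eif2s3y (−0.15 to 0.32, negative without NA replicate 3, RSC replicate 3 or VHN replicate 1). The cause was not tested. Of the 41 named genes, 4 lost their call without VHN replicate 1, Amn and Htr1f among them. Without the 3 libraries 7 lost it, and without any other 1 library at most 2 did. The numbers of the libraries do not pair them (r of −0.0449 to 0.0303 between same-numbered libraries). With the replicate number as a block the counts were 1803, 0 and 52. Without molecular identifiers stated, well intervals cover counting error only.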
